A study of Arabidopsis thaliana with 20 samples.

Results

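These genes are 85 Arabidopsis genes known on the array only by a locus number (AT, chromosome, G and 5 digits), whose signal was lower in nematode-induced giant cells than in control root cells with both of the RNA amplification kits used. They were chosen among the 11933 probe sets listed with 1 such gene, of 22746 gene probe sets in all. A gene was taken if its mean log2(signal + 16) in giant minus control cells was -2 or less with the One-Direct kit and with the Pico kit, and if its control mean was 8 or more with both. The giant and control values of both kits therefore chose the genes, and their differences are given here as a description with no test. Among genes whose control means reached 8 with both kits, the rule took 85 of 3540 unnamed genes (2.4%) and would take 35 of 659 genes with a name (5.31%). Of probe sets without a listed gene or with several, 116 of 3815 (3.04%) met the same values. In all, 236 probe sets met them.

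Cells were cut by laser from root sections of Arabidopsis thaliana, ecotype Columbia, and measured on 20 Affymetrix arrays. All plants had been infested: seedlings 3 weeks old were given 1000 J2 juveniles of Meloidogyne incognita, a root-knot nematode (the labels do not say whether per seedling or per plate), and cells were taken 21 days later. The giant cell samples held about 80 cells (5000000 square micrometres) each, and the control samples about 150 root cells (13000000 square micrometres) from nematode-free regions of the same infested roots. The 4 groups were giant cells with One-Direct, control cells with One-Direct, giant cells with Pico and control cells with Pico, both kits being WT-Ovation products of NuGEN, each with 3 biological samples, 1 of them split over 3 technical arrays. For Pico the RNA was isolated first, and for One-Direct cells went directly into lysis buffer, so kit and isolation cannot be told apart. Cell type goes with the number of cells and the captured area, which cannot be told apart from it either.

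Giant cells are root vascular cells that the nematode turns into its permanent feeding sites. They enlarge, go through repeated nuclear divisions without dividing as cells, fill with dense cytoplasm, and pass plant nutrients to the animal. Root cells outside the feeding site keep their usual traits, among them vacuoles, mature walls and a large outfit of secreted defence proteins and specialised metabolic enzymes. Protein classes named here come from general knowledge of the Arabidopsis genome; the gene table used named a function for AT2G41480 only, a class III peroxidase (AtPRX25). A class is given for 41 of the 85 genes, and the other 44 are given by locus number alone.

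Samples of a group correlated with their own group at a mean r of 0.618 to 0.797 with One-Direct and 0.907 to 0.951 with Pico across 14652 probe sets kept by a filter on low values, and control One-Direct sample 1 was the lowest. The log2 3′/5′ signal ratio of the GAPDH control probe sets, an array measure of RNA ends, averaged 2.24 ± 0.177 in giant and 3.36 ± 0.924 in control cells with One-Direct, and 1.2 ± 0.158 in giant and 2.33 ± 0.203 in control cells with Pico (SD, n = 3 each). This ratio moved with cell type, as the 85 genes do; its part in their difference was not tested. Of 42 marker genes of root cell types and giant cells in 10 lists, 6 were listed alone on a probe set and 4 were kept, so the labelled cell types could not be checked by marker lists. The root hair marker EXPA7 lay between 4.11 and 5.89 in all 12 samples. The cortex marker AT1G09750 measured 4.98, 8.26 and 4.47 in giant and 4.34, 5.62 and 5.92 in control cells with One-Direct, and 5.32, 4.56 and 5.24 in giant and 7.77, 11.62 and 8.45 in control cells with Pico. It was higher in control cells with Pico and not with One-Direct, and over both kits it did not pass (limma adjusted p = 0.0934). The other listed cortex marker, AT1G62500, was not kept by the filter. Giant minus control, AT1G62500 differed by 1.17 with One-Direct and -1.26 with Pico. The part of these markers in the results was not tested. The 3 kept giant cell genes, LBD16, AT1G63290 and AT3G01850, did not pass between giant and control cells over both kits (limma adjusted p = 0.771, 0.469 and 0.644).

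The 85 genes had a median difference of -2.5 with One-Direct (lowest -4.57, highest -2.0) and of -3.21 with Pico (lowest -5.87, highest -2.04), against a median over both kits of 0.24 for all kept probe sets. On the log2(signal + 16) scale these are medians of 5.67-fold and 9.25-fold lower signal in giant cells. The pseudocount of 16 makes such folds too small for dim genes, and 6 genes had a giant cell mean under 5 with Pico, close to the value of 4 that a signal of 0 gives. In captured samples of many cells, fewer cells of a type and less RNA per cell cannot be told apart. The median mean signal was 7.71 in giant and 10.28 in control cells with One-Direct, and 6.99 in giant and 10.35 in control cells with Pico. The giant cell median was thus lower with Pico. The difference was larger with Pico for 70 genes and larger with One-Direct for 15. It reached -3 or less with both kits in 14 genes, with Pico in 53 and with One-Direct in 17.

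**Figure D1:**
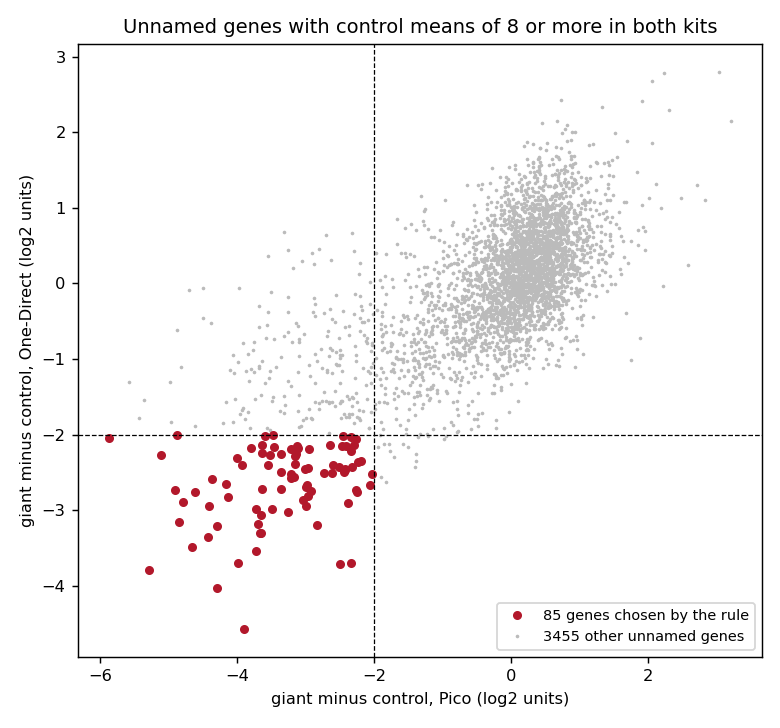
Difference in mean log2(signal + 16), giant minus control, with One-Direct (vertical axis) and with Pico (horizontal axis) for the 3540 unnamed genes with control means of 8 or more in both kits; dashed lines mark the rule's limit of -2. The 85 genes fill the lower left corner and reach -5.87 with Pico and -4.57 with One-Direct.

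Every giant cell sample lay below every control sample with both kits for 65 of the 85 genes; among all 14652 kept probe sets this held for 4.59%, a share that cannot be read against the 65 because the rule used the same values. With Pico 82 genes had no overlap, and with One-Direct 68. The rule used these values too, so nothing is read from these counts. Shares over all probe sets were not counted for single kits. In the 17 genes that overlapped with One-Direct, giant sample 1 was the highest giant sample in 11 and control sample 1 the lowest control sample in 11. All 85 genes passed the filter on low values, which 3 high control samples suffice to do.

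The gene with the lowest mean difference was AT3G01260, of the galactose mutarotase-like family, whose members change the form of sugars. AT3G01260 measured 5.02, 6.19 and 6.73 in giant and 9.03, 10.33 and 9.95 in control cells with One-Direct, and 4.72, 4.4 and 4.06 in giant and 9.84, 9.28 and 9.92 in control cells with Pico. Its 6 giant cell samples were all far below its 6 control samples, and those with Pico lay close to the bottom of the scale. The difference was -3.79 with One-Direct and -5.28 with Pico, which is 13.8-fold and 39-fold lower, and over 19 other settings it ran from -4.73 to -3.0 with One-Direct and from -7.49 to -3.64 with Pico. AT4G36500 followed. AT4G36500 measured 9.01, 8.26 and 6.12 in giant and 12.45, 12.46 and 12.2 in control cells with One-Direct, and 7.42, 8.23 and 7.32 in giant and 11.1, 10.79 and 12.79 in control cells with Pico. Its One-Direct control samples differed little, while giant sample 3 was well below giant sample 1. Its difference of -4.57 with One-Direct was the lowest of all 85 genes with that kit. AT4G27654 was low in all giant cell samples. AT4G27654 measured 4.59, 6.46 and 5.49 in giant and 8.19, 10.33 and 10.12 in control cells with One-Direct, and 5.78, 4.37 and 6.4 in giant and 8.55, 10.3 and 10.61 in control cells with Pico. Control sample 1 was the lowest control sample with both kits.

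The secreted proteins among the 12 genes with the lowest mean differences included a lipid-transfer-like protein, a berberine bridge enzyme-like oxidase, a peroxidase, a glycine-rich protein and a CAP protein. AT3G53980 is of the lipid-transfer and protease-inhibitor-like class, small cysteine-rich proteins of the cell wall space. AT3G53980 measured 9.78, 6.98 and 6.04 in giant and 11.12, 11.55 and 10.59 in control cells with One-Direct, and 7.89, 7.98 and 7.1 in giant and 11.95, 12.65 and 12.34 in control cells with Pico. Giant One-Direct sample 1 was the highest of the giant samples and still below all controls. AT1G30760, a berberine bridge enzyme-like protein, belongs to wall-associated flavin oxidases. AT1G30760 measured 9.37, 8.11 and 7.93 in giant and 12.72, 11.36 and 11.38 in control cells with One-Direct, and 6.84, 8.54 and 6.77 in giant and 12.1, 12.16 and 11.18 in control cells with Pico. The giant samples stayed below the controls with both kits, with a mean difference of -3.35 with One-Direct and -4.43 with Pico. AT2G41480, the peroxidase, acts in the wall on phenolic compounds. AT2G41480 measured 7.9, 8.89 and 6.71 in giant and 12.05, 11.29 and 11.26 in control cells with One-Direct, and 7.95, 6.99 and 6.88 in giant and 11.22, 11.17 and 11.4 in control cells with Pico. Its 3 Pico control samples lay close together and far above the giant samples, and the difference was -3.7 with One-Direct and -3.99 with Pico.

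AT4G30450, a glycine-rich protein, had the brightest control signal of the 12. AT4G30450 measured 11.06, 10.58 and 11.19 in giant and 14.38, 13.57 and 13.54 in control cells with One-Direct, and 10.64, 8.92 and 10.07 in giant and 14.85, 14.55 and 14.61 in control cells with Pico. Giant cell samples were still bright, so this gene was lower in giant cells without being near the floor. AT4G07820 is a CAP protein, the family of pathogenesis-related protein 1. AT4G07820 measured 7.31, 5.01 and 5.99 in giant and 6.92, 9.59 and 9.99 in control cells with One-Direct, and 4.62, 4.27 and 4.19 in giant and 9.92, 8.81 and 9.08 in control cells with Pico. With One-Direct, control sample 1 lay below giant sample 1, so the groups overlapped, while with Pico the giant samples were all at the bottom of the scale. AT4G33720, the other CAP protein, differed by -2.95 with One-Direct and -4.41 with Pico, and it too overlapped with One-Direct, through control sample 3 at 6.33 and giant sample 1 at 6.48.

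The remaining 4 of these 12 were AT3G02840, AT5G08240, AT4G29780 and AT1G12010. AT3G02840 is an ARM-repeat protein, and it measured 5.54, 6.15 and 6.53 in giant and 4.34, 11.98 and 11.38 in control cells with One-Direct, and 5.06, 4.14 and 4.66 in giant and 7.74, 9.9 and 10.76 in control cells with Pico. Control One-Direct sample 1 was the lowest of all its One-Direct samples, giant ones included, which gave it the largest SD within a group among the 85 genes. Over 19 other settings its difference ran from -5.61 to -1.78 with One-Direct and from -6.45 to -3.41 with Pico, the lowest One-Direct value being the one without control One-Direct sample 1. AT5G08240 measured 9.32, 9.5 and 10.16 in giant and 11.6, 11.62 and 11.89 in control cells with One-Direct, and 5.31, 6.64 and 4.53 in giant and 11.25, 10.98 and 11.85 in control cells with Pico. Its control levels were alike with both kits, but giant cells with One-Direct kept a high signal. AT4G29780 measured 8.43, 8.71 and 7.7 in giant and 10.23, 12.29 and 11.96 in control cells with One-Direct, and 7.28, 8.17 and 6.03 in giant and 10.17, 12.06 and 12.14 in control cells with Pico. No giant sample reached a control sample. AT1G12010 is of the dioxygenase family that holds the ethylene-forming ACC oxidases. AT1G12010 measured 9.14, 9.27 and 9.35 in giant and 11.96, 11.66 and 10.95 in control cells with One-Direct, and 7.65, 6.28 and 6.93 in giant and 12.78, 11.88 and 11.53 in control cells with Pico. It was tight in giant One-Direct samples, and its difference was -2.27 with One-Direct and -5.11 with Pico.

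**Figure D2:**
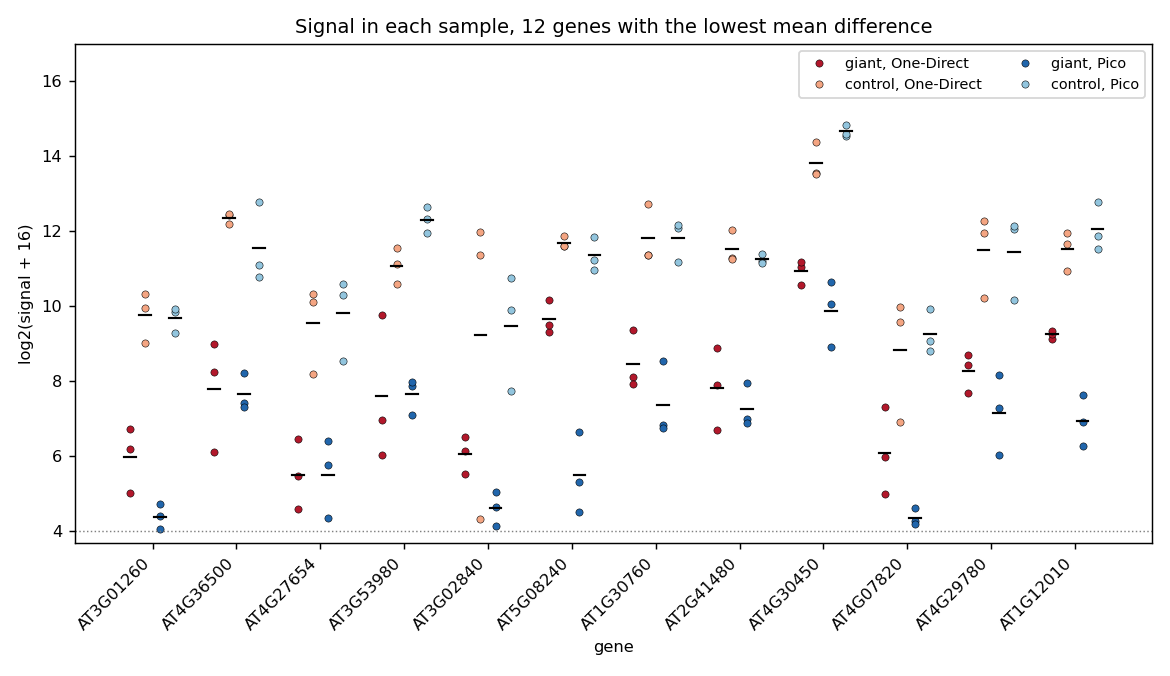
Log2(signal + 16) in each biological sample (points) with group means (bars) for the 12 genes with the lowest mean of both kits' differences; the dotted line at 4 is a signal of 0. Giant cell samples lie under control samples for all but AT3G02840 and AT4G07820, whose groups overlap with One-Direct.

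Grouped by protein class, the 41 genes with a class fell into 15 classes of 2 to 4 genes, put together after the values had been seen. As every gene was chosen for the same direction, the classes show only which kinds of gene are present and the size of each difference. The largest were berberine bridge enzyme-like proteins, calcium signalling, glycine-rich or proline-rich proteins, and sugar and glycosyl enzymes, with 4 genes each. Berberine bridge enzyme-like AT1G30760, AT5G44380, AT4G20830 and AT4G20860 differed by -3.35 and -4.43, -2.41 and -3.55, -2.46 and -2.43, and -2.36 and -2.24 (One-Direct and Pico in turn). AT4G20830 and AT4G20860 are near each other on chromosome 4, with 3 protein-coding genes between them. They were the only pair of the 85 within 10 steps of gene order, and no gene was next to another.

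Class III peroxidases, which couple phenolic compounds in the wall, were AT2G41480 and AT4G33420. AT4G33420 averaged 8.56 ± 0.45 in giant and 10.56 ± 1.91 in control cells with One-Direct and 6.43 ± 0.14 in giant and 11.31 ± 0.5 in control cells with Pico (SD, n = 3 each). With One-Direct its control sample 1 at 8.38 lay among the giant samples, and its One-Direct difference, -2.0, was the closest of all 85 to the limit. Lipid-transfer-like AT5G05960 and AT4G22610 differed by -2.18 with One-Direct and -3.8 with Pico and by -2.45 with One-Direct and -2.97 with Pico, and both overlapped with One-Direct. Among the other glycine-rich or proline-rich genes, AT1G67870 differed by -3.3 with One-Direct and -3.65 with Pico, AT3G04640 by -2.14 with One-Direct and -2.65 with Pico and AT2G27390 by -2.02 with One-Direct and -3.6 with Pico. Such repetitive proteins are commonly found in plant cell walls.

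Enzymes of specialised metabolism formed several small classes. Dioxygenases AT2G25450 and AT1G06620 differed by -2.76 with One-Direct and -4.62 with Pico and by -2.5 with One-Direct and -2.62 with Pico; AT2G25450 is known to hydroxylate a glucosinolate side chain, a defence compound. AT2G25450 measured 10.72, 9.04 and 8.54 in giant and 12, 12.47 and 12.1 in control cells with One-Direct, and 7.19, 8.22 and 7.07 in giant and 11.74, 12.42 and 12.17 in control cells with Pico. All giant samples were below all controls, with giant One-Direct sample 1 the nearest. BAHD acyltransferases, which attach acyl groups to many plant metabolites, were AT4G15390 (-2.31 and -4.01) and AT1G24430 (-2.99 and -3.5). Terpene synthase family genes AT3G29410 and AT4G20230 differed by -2.14 with One-Direct and -3.64 with Pico and by -2.15 with One-Direct and -2.47 with Pico. AT3G29410 overlapped with Pico, where giant sample 3 measured 9.62 and giant samples 1 and 2 only 5.0 and 4.88. Apart from specialised metabolism, the HAD-type hydrolases, a family of phosphatases, were AT2G32150, AT3G62040 and AT4G29270. They differed by -3.3 and -3.68, -2.82 and -4.13, and -2.19 and -3.12.

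Of the other sugar and glycosyl enzymes, AT1G62660 is a vacuolar invertase, which splits sucrose, AT3G46700 a glycosyltransferase that uses UDP-sugars, and AT2G41640 a glycosyltransferase of the secretory pathway. They differed by -2.2 and -3.21, -2.01 and -3.48, and -2.46 and -3.01. Membrane transporters were AT1G11670, of the MATE family, and AT2G40460, of the nitrate and peptide transporter family, with -2.52 and -2.04 and -2.46 and -2.43. These transporters were the class with the smallest median of the mean differences, -2.36, and CAP proteins had the largest, -3.75.

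Genes of signalling and regulation made up the rest. EF-hand proteins, which bind calcium, were AT4G27280 (-2.76 and -2.25) and AT5G39670 (-2.69 and -2.99), beside the calmodulin-binding AT2G26190 (-2.28 and -3.52) and AT5G66650 of the mitochondrial calcium uniporter family (-2.15 and -2.42). AT4G27280 measured 9.5, 11.02 and 9.36 in giant and 12.16, 12.93 and 13.08 in control cells with One-Direct, and 10.13, 12.17 and 9.92 in giant and 11.34, 13.76 and 13.86 in control cells with Pico. Giant Pico sample 2 lay above control Pico sample 1, so the groups overlapped with Pico. Ankyrin-repeat AT2G24600 and AT1G14480 differed by -3.19 with One-Direct and -2.84 with Pico and by -2.81 with One-Direct and -2.96 with Pico. The bHLH genes, a family of transcription factors, were AT1G61660 (-2.25 and -3.14) and AT5G50010 (-2.53 and -3.21).

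**Figure D3:**
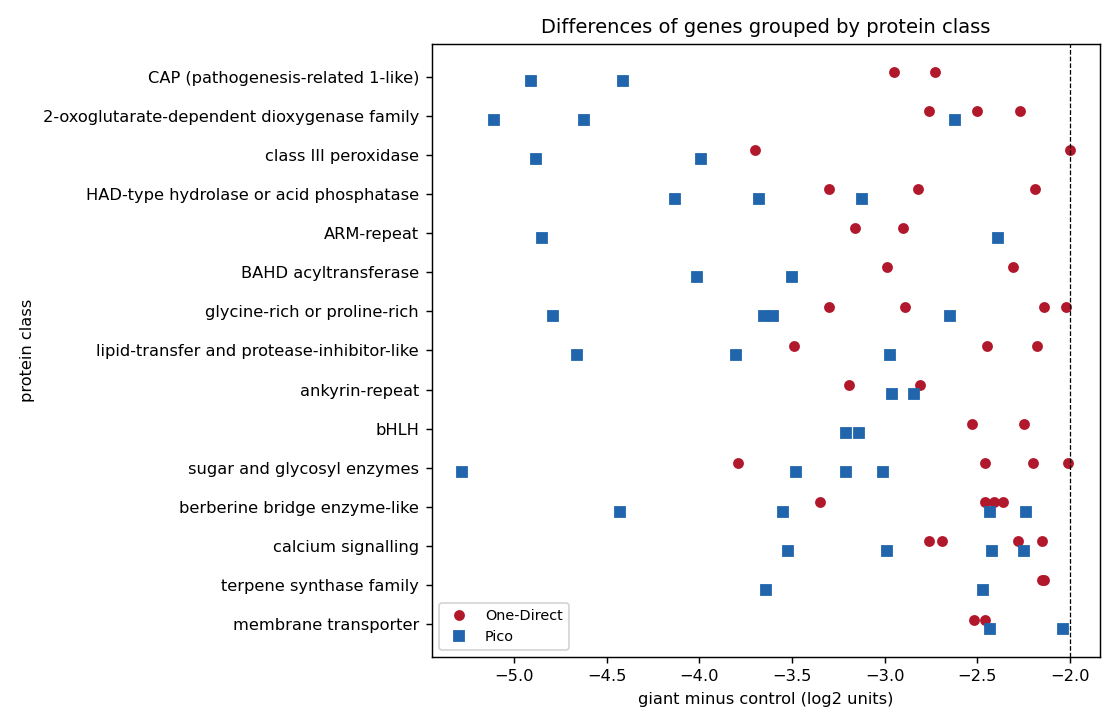
Difference in mean log2(signal + 16), giant minus control, of the 41 genes with a protein class, with One-Direct (circles) and Pico (squares); the dashed line marks the limit of -2. Classes are ordered by the median of their mean differences, CAP proteins at the top with -3.75 and membrane transporters at the bottom with -2.36.

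The rule reads only group means, but these hold each sample, so differences among samples of 1 group can affect which genes are taken. Without control One-Direct sample 1 it took 113 genes, 74 of them among the 85. The shares below are given as a description. Control sample 1 was at least 1 log2 unit below both other control samples in 27 of the 85 genes with One-Direct (31.8%) and in 15 with Pico (17.6%), and 11 genes met this with both kits (12.9%). Among the 3455 other unnamed genes with control means of 8 or more, the shares were 21.4% with One-Direct, 2.78% with Pico and 1.36% with both. Control samples 2 and 3 were that far below the others with both kits in 0 of the 85 genes. Among the 3455 others the shares were 0.318% and 0.0579%, so nothing is read from the count of 0. Control One-Direct sample 1 also stood apart in the GAPDH 3′/5′ log2 ratio, at 4.42 against 2.73 and 2.93 in control samples 2 and 3, while control Pico sample 1 had 2.39 against 2.11 and 2.5. The part of this ratio in the low values was not tested. This count was made after the values had been seen, and the labels do not say whether control samples 1 of the kits share plants.

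The 11 genes were AT4G27654, AT3G02840, AT4G29780, AT5G17350, AT5G11070, AT4G24380, AT3G10930, AT1G14480, AT2G41640, AT5G58680 and AT1G74450. The gap of control sample 1 to the mean of the other controls had a median of 2.04 with One-Direct (1.3 to 7.34) and of 2 with Pico (1.5 to 3.25). AT5G17350 measured 6.23 in sample 1 and 10.55 and 11.2 in samples 2 and 3 of the One-Direct controls, and 8.34 against 10.94 and 11.39 in the Pico controls. Its One-Direct control sample 1 lay below the giant samples, which ran from 6.59 to 7.2. AT1G14480, an ankyrin-repeat gene, had 6.11 in sample 1 and 10.45 and 10.43 in samples 2 and 3 of the One-Direct controls, and 7.71 against 9.08 and 10.04 in the Pico controls. Here too One-Direct control sample 1 lay among the giant samples. AT1G74450 had 10 in sample 1 and 11.82 and 11.14 in samples 2 and 3 of the One-Direct controls, and 7.39 against 11.17 and 10.11 in the Pico controls. In Pico its control sample 1 stood only a little above the giant samples at 6.99, 6.75 and 6.71. AT3G10930 measured 8.07 in sample 1 and 9.98 and 10.08 in samples 2 and 3 of the One-Direct controls, and 7.99 against 10.2 and 11.36 in the Pico controls. AT4G24380 had a One-Direct control sample 1 well above its giant samples. It measured 9.52 in sample 1 and 11.5 and 11.11 in samples 2 and 3 of the One-Direct controls, and 8.54 against 10.34 and 10.48 in the Pico controls. In all of them control samples 2 and 3 lay above sample 1, as the count requires.

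Genes known for fast induction by wounding, touch or microbial elicitors were looked at beside them. Of a list of 40, only 4 were listed alone on a probe set; all 4 were kept, 3 were lower in giant cells over both kits and 0 higher, against 9.04% of kept probe sets called lower and 10.5% called higher (19.6% in either direction). Their median difference was -2.63. WRKY53 is a transcription factor of defence and senescence. WRKY53 measured 7.49, 8.89 and 7.61 in giant and 9.6, 12.18 and 11.75 in control cells with One-Direct, and 8.09, 7.67 and 7.19 in giant and 10.71, 10.8 and 12.35 in control cells with Pico (difference over both kits -3.41, SE 0.47, limma adjusted p = 0.000484). No giant sample reached a control sample. STZ is a zinc-finger repressor of stress responses. STZ measured 7.06, 8.6 and 6.26 in giant and 9.62, 10.99 and 10.79 in control cells with One-Direct, and 7.95, 9.71 and 8.65 in giant and 9.14, 12.38 and 12.69 in control cells with Pico (difference -2.9, SE 0.61, limma adjusted p = 0.00638). Control Pico sample 1 lay below giant Pico sample 2. CML38, a calmodulin-like protein, differed by -2.37 (SE 0.58, limma adjusted p = 0.0136) and AT1G07135 by -0.70 (limma adjusted p = 0.419). Control sample 1 was the lowest control with both kits for all 4, also for AT1G07135, which was not called lower. Among these, only STZ had the gap of at least 1 log2 unit with both kits that the 11 genes had. With Pico, control sample 1 was 10.71 against 10.8 and 12.35 for WRKY53, and 10.73 against 11.11 and 12.11 for CML38. For AT1G07135 it was 9.71 against 10.24 and 9.92. For CML38, control One-Direct sample 1 at 8.45 lay below giant One-Direct samples 1 and 2 at 8.62 and 9.35. The fall of WRKY53 was known when this list was written. Their part in the result of the 85 genes was not tested.

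**Figure D4:**
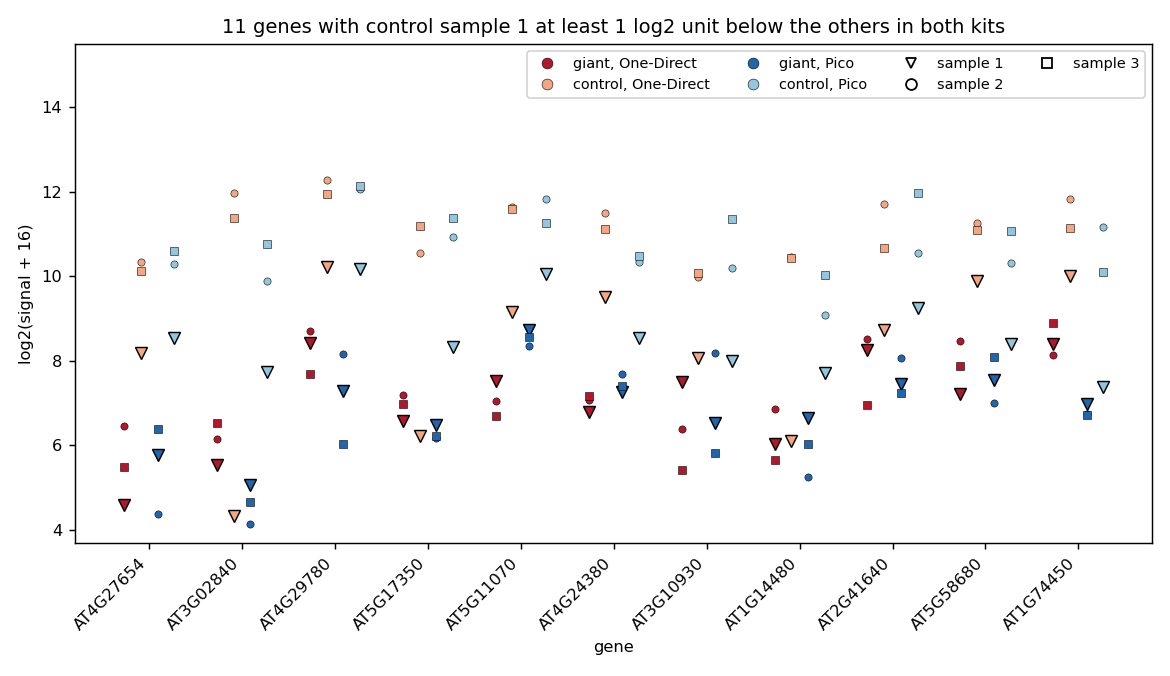
Log2(signal + 16) in each biological sample of the 11 genes in which control sample 1 (triangles) lay at least 1 log2 unit below control samples 2 (circles) and 3 (squares) with both kits. The control triangles lie below the other control points of their kit, by 1.3 to 7.34 with One-Direct and 1.5 to 3.25 with Pico from their mean.

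Giant cell samples were uneven as well. The rule's giant means hold these samples too, so the shares are a description. Giant One-Direct sample 1 was at least 1 log2 unit above both other giant samples in 31 of the 85 genes (36.5%, against 4.4% of the 3455 others), and giant Pico sample 2 in 18 (21.2%, against 2.43%). The median over the 85 genes was 8.4, 7.73 and 7.24 in giant and 10.0, 10.6 and 10.5 in control cells with One-Direct, and 6.99, 7.27 and 6.91 in giant and 10.2, 10.5 and 10.4 in control cells with Pico. Every giant sample thus had a lower median than every control sample with the same kit, an order largely set by the rule, which used these values. AT1G28580 showed the uneven giant samples clearly. AT1G28580 measured 10.77, 7.08 and 7.28 in giant and 10.81, 10.74 and 10.88 in control cells with One-Direct, and 8.08, 9.17 and 7.96 in giant and 11.01, 10.67 and 11.09 in control cells with Pico. Giant One-Direct sample 1 was level with the controls while samples 2 and 3 were far below. AT1G27030 also had giant One-Direct sample 1 highest, with 12.19, 9.4 and 8.79 in giant and 12.43, 12.11 and 11.9 in control cells with One-Direct.

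The spread over samples differed between cell types. The median SD of the 85 genes over 3 biological samples was 0.873 in giant and 0.642 in control cells with One-Direct, and 0.6 in giant and 0.507 in control cells with Pico. Over the 3 technical arrays of the split sample it was 0.614 in giant and 0.31 in control cells with One-Direct, and 0.374 in giant and 0.193 in control cells with Pico. All kept probe sets had 0.463 and 0.759 (biological, One-Direct, giant and control) and 0.306 and 0.371 (Pico). In giant cells the 85 genes were thus more variable than the typical probe set, as they were in Pico control cells, and in One-Direct control cells less. Their sample medians in giant cells lay below those of all kept probe sets (8.77 to 9.09) and in control cells above (8.58 to 8.91); the part of brightness in the spread was not tested.

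The kits are set side by side within each cell type as a description. The rule required control means of 8 or more and giant means at least 2 lower with each kit, so it bounds all the means compared here, and some genes lay at the bottom of the scale in giant cells with Pico. Counts of genes past the limma threshold are therefore given without p-values of single genes, and nothing is read from their shares against those of all probe sets. In control cells the fit over all kept probe sets called 2 of the 85 genes (2.35%), while it called 21.3% of kept probe sets, 11.2% higher with One-Direct and 10.1% lower. AT5G50010, a bHLH gene, measured 8.62, 9.8 and 9.77 with One-Direct and 7.65, 8.05 and 8.32 with Pico in control cells, a difference of 1.39. AT5G05960, a lipid-transfer-like gene, measured 8.45, 10.34 and 9.62 with One-Direct and 11.18, 12.37 and 11.98 with Pico in control cells, a difference of -2.37. AT5G50010 was thus higher with One-Direct in all samples and AT5G05960 lower. The median kit difference in control cells was -0.05 for the 85 genes and -0.19 for all kept probe sets. The count of 2 was 7 without control One-Direct sample 1. It was 0 on leaving out control sample 1 or 2 of Pico, and 1 on leaving out giant sample 2 or control sample 2 or 3 of One-Direct, or giant sample 1 or 3 of Pico.

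In giant cells the same fit called 13 of the 85 genes higher with One-Direct (15.3%) and 0 lower. It called 15.2% of kept probe sets higher and 5.99% lower (21.2% in either direction). The median kit difference was 0.49 for the 85 genes and -0.01 for all kept probe sets. Median centring moved that of all kept probe sets to -0.67 and quantile normalization to -0.22, and the calls were then 5 higher and 4 lower, and 5 higher and 1 lower. The count in either direction was 8 without giant One-Direct sample 1 (7 higher, 1 lower) and 8 without giant Pico sample 1 (all higher). It was 6 without giant Pico sample 3 (all higher) and 21 without control One-Direct sample 1 (20 higher, 1 lower). Shares of all probe sets were not counted for these other settings, here or in control cells.

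The kit difference in giant cells was largest for AT5G08240, described above, at 4.17. Proline-rich AT2G27390 measured 11.63, 11.91 and 11.09 with One-Direct and 7.58, 9.59 and 7.5 with Pico in giant cells, a difference of 3.32. The acyltransferase AT4G15390 measured 9.89, 9.55 and 8.7 with One-Direct and 6.29, 7.22 and 7.96 with Pico in giant cells, a difference of 2.22. AT1G12010, of the dioxygenase family and described above, had a difference of 2.3. In these 4 genes every giant One-Direct sample lay above every giant Pico sample. AT2G17660 differed by 2.22. The other 8 of the 13 were AT4G33420, AT5G50010, AT2G25450, AT1G62660, AT2G37750, AT3G46700, AT1G49500 and AT3G01260, with differences from 1.59 to 2.13. AT3G01260 and AT5G50010 had giant Pico means of 4.39 and 4.79, near the bottom of the scale.

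**Figure D5:**
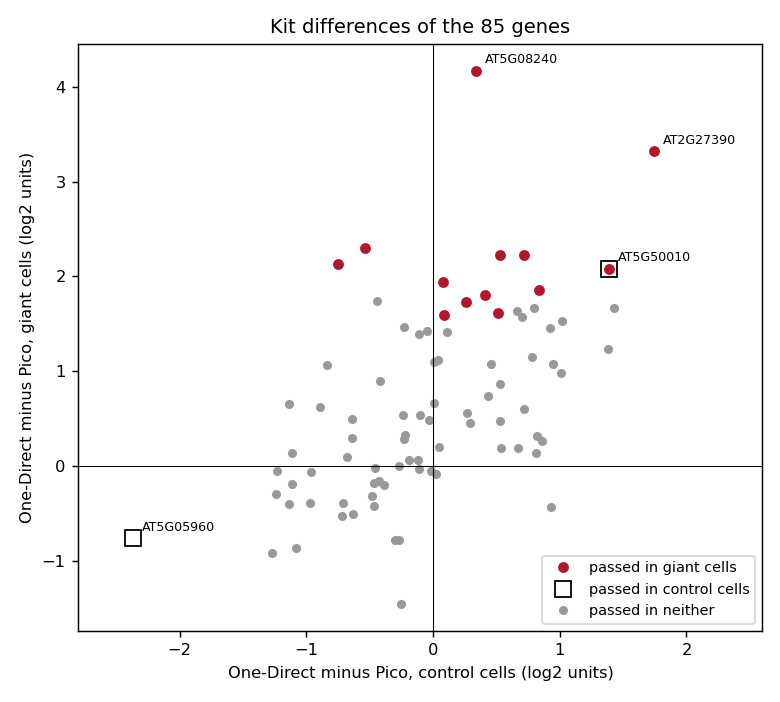
Difference in mean log2(signal + 16), One-Direct minus Pico, in giant cells (vertical axis) and control cells (horizontal axis) for the 85 genes; filled red circles mark the 13 genes called in giant cells and open squares the 2 called in control cells by limma, as a description, since the rule bounds the means compared. AT5G08240 is the highest point, at 4.17 in giant cells, and AT5G05960 the leftmost, at -2.37 in control cells.

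The gap between the kits in the giant minus control difference was widest in AT5G08240 (-2.04 and -5.87), AT4G33420 (-2.0 and -4.88), AT1G12010 (-2.27 and -5.11) and AT4G07820 (-2.73 and -4.91), all lower with Pico. In the other direction it was widest in AT4G24380 (-3.7 and -2.33), AT5G11070 (-3.72 and -2.5), AT4G36500 (-4.57 and -3.9) and AT2G03240 (-2.66 and -2.06). The kits' differences lay within 1 log2 unit of each other in 56 genes. They were at least 1 unit lower with Pico in 27 and with One-Direct in 2. These gaps are built from the values the rule used and were not tested.

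The genes were spread over all chromosomes. There were 23 on chromosome 1 (27.1%, against 25.9% of the 3540 unnamed genes with control means of 8 or more), 15 on chromosome 2 (17.6% against 14.7%), 11 on chromosome 3 (12.9% against 19.9%), 16 on chromosome 4 (18.8% against 14.4%) and 20 on chromosome 5 (23.5% against 25.2%). All 85 are annotated as protein-coding, and all their probe sets carry the plain suffix _at. That suffix marks probe sets meant to match a single gene.

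The genes nearest the limits show how close the choice was. Just inside the limit of -2 were AT4G33420 (-2.0 and -4.88), AT3G46700 (-2.01 and -3.48) and AT2G27390 (-2.02 and -3.6), each by its One-Direct difference. Just outside were AT3G62260 (-1.97 and -2.66), AT1G24575 (-2.17 and -1.94) and AT3G20015 (-1.93 and -3.53). A further 9 unnamed genes met both differences but had a control mean under 8 with a kit, among them AT2G44500, with differences of -4.29 and -2.36 and a Pico control mean of 7.96. AT5G50010 was in with a Pico control mean of 8.01.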

How the data were processed

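The deposited values are Affymetrix signal intensities, 1 per probe set and array, made with MAS5 in Expression Console per the submitters' processing notes. Each array was scaled here to the arrays' common trimmed mean of 500.03 intensity units (2% left out at each end); without this step the counts were the same. The scaled intensities became log2(signal + 16), technical arrays were averaged first, and 12 biological samples remained of 20 arrays. Array number limits the precision. Whether samples of a group came from separate plants is not stated, so p-values measure the spread between these samples, which may be too small.

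The kit contrasts and the both-kit contrast were tested with limma 3.58.1 (R 4.3.3) over 14652 probe sets above the sample's median in at least 3 samples, with group means of all 4 groups, two-sided, Benjamini-Hochberg adjusted, threshold 0.05. For the 85 genes the kit contrasts give counts only, as a description, because the rule bounds the means compared. The alternatives were the pseudocount, scaling, filter, sample weights, replicate block and leaving out samples. Gene names come from the array annotation and RefSeq; 8730 probe sets without a listed gene and 503 with several were not used as members.

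The members and lists were chosen with earlier results of these data known. Genes named in full are the 12 with the lowest mean difference, those called between kits (5 per direction and cell type), the 4 with the widest gap between kits in each direction, those nearest the limit, classes of at least 2 genes, and list genes; AT1G28580, AT1G27030 and the 11 genes with a low control sample 1 were picked after their values were seen. Protein classes come from general knowledge, since the gene table holds no descriptions. Protein and promoter sequences were not analysed here.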

Additional observations from a re-analysis of the deposited data

How the results depend on the processing

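All 85 genes stayed lower in giant cells with both kits in all 19 settings that give a difference. Their choice by these same values made this likely beforehand. AT4G33420, AT5G08240 and AT2G03240 missed the limit of -2 with a kit in 6 of these settings each. Others, such as AT3G01260, met it in all. No result reversed. The rule itself found 57 genes at pseudocount 64, 120 after quantile normalization and 147 after median centring, against 85. Of these, 57, 77 and 83 in turn were among the 85. The rule found 14 genes at differences of -3 or less and 42 at a control mean of 10 or more. Leaving out giant and control sample 1 of One-Direct, an alternative chosen after seeing the data, gave 130 genes, 78 of them among the 85. Leaving out 1 sample gave 65 to 113 genes. The 65, found without giant One-Direct sample 3, held 60 of the 85. The 113, found without control One-Direct sample 1, held 74. The median difference with One-Direct was -3.1059 after quantile normalization, -2.9905 after median centring and -3.0613 with sample 1 of both One-Direct groups left out, and -2.8135 to -2.3705 when 1 sample was left out. With Pico it was -3.5138 at pseudocount 1, -2.743 at pseudocount 64 and -2.8638 after quantile normalization, and -3.4736 to -3.0745 when 1 sample was left out. As a description, genes called between kits in control cells numbered 1 at pseudocount 1, 4 at pseudocount 64, 0 with the first technical array only, 1 with only the compared samples, 9 without sample 1 of both One-Direct groups, and 0 to 7 when 1 sample was left out. In giant cells they numbered 6 after quantile normalization, 21 with only the compared samples, 29 with sample quality weights, and 6 to 21 when 1 sample was left out. Shares of all probe sets called between kits in these settings were not counted, so nothing is read from these counts. Over both kits, sample quality weights gave 2521 probe sets higher and 1814 lower in giant cells, against 1544 and 1324. The cause of these changes was not tested. With the replicate number as a replicate block, 1 gene was called in control cells, 14 in giant cells, and 1312 probe sets were lower in giant cells over both kits, against 1324. The labels do not say whether same-numbered samples share plants. Their deviations correlated at 0.138, 0.0786 and 0.0475 between One-Direct and Pico controls. Differently numbered samples of these control groups correlated at -0.122 to 0.0546. Between other groups, same-numbered samples correlated at -0.0645 to 0.0462. Shared material was not tested. The both-kit contrast uses all 12 samples, so it has no fit with only the compared samples. Signals near 4 on the log2(signal + 16) scale cannot show how low a gene is.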
